A study of Mus musculus with 17 samples.

Results

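The genes described here are 9 cytochrome P450 genes of the Cyp2d, Cyp2f and Cyp2j subfamilies, taken by their gene symbols from a table of 23461 genes. They are Cyp2d9, Cyp2d10, Cyp2d11, Cyp2d22, Cyp2d26, Cyp2d40, Cyp2f2, Cyp2j5 and Cyp2j6. The rule names them by symbol and uses no measured value, but they were chosen with earlier results of these data known. The data are RNA-seq counts per gene from hepatocytes, the main metabolic cells of the liver, sorted by flow cytometry from male mice aged 2 to 3 months. The 17 samples form 4 groups: 3 Yap/Taz knockout samples given CCl4, 5 wild-type samples given CCl4, 4 untreated Yap/Taz knockout samples and 5 untreated wild-type samples. CCl4 (carbon tetrachloride), a solvent that injures hepatocytes once P450 enzymes have activated it, was given at 1 ug per g in 7 doses spaced 3 days apart, and cells were taken 3 days after the last dose. Yap and Taz are the transcriptional coactivators of the Hippo pathway. The labels name the knockout without saying how the alleles were deleted, and they do not say whether each sample came from its own animal, so p-values measure only the spread between these samples.

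Cytochrome P450 enzymes are heme proteins of the endoplasmic reticulum that oxidise drugs, steroids and fatty acids with electrons passed on by P450 reductase. The mouse Cyp2d genes lie side by side and are the counterparts of the single drug-metabolising human gene CYP2D6. Cyp2f2 marks periportal hepatocytes in mouse liver, the cells nearest the portal vein, and activates naphthalene in the mouse lung, while the Cyp2j enzymes turn arachidonic acid into epoxides.

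All 6 Cyp2d genes lie on chromosome 15 (mm10). Cyp2d9 (ENSMUSG00000068086) spans chr15:82433437-82456845 on the plus strand, and Cyp2d10 (ENSMUSG00000094806) and Cyp2d11 (ENSMUSG00000068085) lie on the minus strand at chr15:82402846-82407195 and chr15:82389154-82394022. Cyp2f2 (ENSMUSG00000052974) spans chr7:27119909-27133660 on the plus strand. Cyp2j5 (ENSMUSG00000052520) and Cyp2j6 (ENSMUSG00000052914) lie on the minus strand at chr4:96628773-96664154 and chr4:96516138-96553661.

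The 250 bases before the start of 4 Cyp2d genes are shown because Cyp2d11 was counted far less than neighbours with a similar start region. They come from RefSeq on GRCm38.p6 and read 5′ to 3′ on the strand of the gene, at chr15:82452127-82452376 for Cyp2d9, chr15:82407195-82407444 for Cyp2d10, chr15:82394023-82394272 for Cyp2d11 and chr15:82794246-82794495 for Cyp2d26. RefSeq entries were matched for 8 of the 9 genes. Capitals mark the longest run shared letter for letter by Cyp2d9, Cyp2d10 and Cyp2d11, and in Cyp2d26 the stretch of it found in all 5 Cyp2d sequences at hand.
Cyp2d9: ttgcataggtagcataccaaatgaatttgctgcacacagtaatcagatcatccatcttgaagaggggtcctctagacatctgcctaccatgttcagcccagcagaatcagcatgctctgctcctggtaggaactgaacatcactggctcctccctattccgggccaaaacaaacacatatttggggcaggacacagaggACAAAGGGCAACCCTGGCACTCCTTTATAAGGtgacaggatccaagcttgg
Cyp2d10: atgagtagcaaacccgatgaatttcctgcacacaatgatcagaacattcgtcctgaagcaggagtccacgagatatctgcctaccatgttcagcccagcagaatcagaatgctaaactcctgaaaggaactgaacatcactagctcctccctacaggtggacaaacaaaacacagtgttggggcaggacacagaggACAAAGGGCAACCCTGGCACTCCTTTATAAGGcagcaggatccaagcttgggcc
Cyp2d11: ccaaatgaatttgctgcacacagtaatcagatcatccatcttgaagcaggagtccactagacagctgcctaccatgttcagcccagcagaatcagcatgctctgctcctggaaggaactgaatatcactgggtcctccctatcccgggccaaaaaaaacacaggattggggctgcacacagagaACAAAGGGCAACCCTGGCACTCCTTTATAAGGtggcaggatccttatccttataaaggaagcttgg
Cyp2d26: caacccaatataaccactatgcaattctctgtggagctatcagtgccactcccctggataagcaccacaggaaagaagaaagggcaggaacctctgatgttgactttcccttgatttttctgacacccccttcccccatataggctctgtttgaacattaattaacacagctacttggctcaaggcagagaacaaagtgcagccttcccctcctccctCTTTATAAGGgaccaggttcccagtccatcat
The shared run of 32 bases ends 20 bases before the RefSeq start in Cyp2d9, 23 bases before it in Cyp2d10 and 35 bases before it in Cyp2d11 (base 1 being the one next to the start), and it was found in 3 of 32817 promoter sequences of the same length. Its last 10 bases, CTTTATAAGG, hold the letters of a TATA box and occurred in 27 of the 32817 sequences (0.0823%), the Cyp2d26 and Cyp2d40 sequences among them. Aligned end to end, the Cyp2d9 sequence was 82.8% identical to that of Cyp2d10 and 82.3% identical to that of Cyp2d11, and Cyp2d10 was 76.7% identical to Cyp2d11. Pairs that included any of the other matched genes were 44.7% to 56.5% identical. Of the motifs searched on both strands, the TEAD letters GGAATG (the DNA partner of Yap and Taz) matched once each in Cyp2d40 and Cyp2j6 and in 12.6% of all promoter sequences. The STAT5 letters TTCNNNGAA (7.02% of all) and the C/EBP letters TTGCNNAA (9.57%) matched in none of the 8. The HNF1 letters GTTAAT (6.44%) matched once in Cyp2d26, and the HNF4 core CAAAG (48.6%) matched once in each but Cyp2f2.

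The sequences also bear on how well reads can be assigned. Of the 50-base words in the transcripts of Cyp2d11, 62.8% occurred in no other gene, against 64.2% for Cyp2d10, 78.2% for Cyp2d9, 85.5% for Cyp2d40, 90.5% for Cyp2d26 and 95.9% for Cyp2d22. Cyp2d10 and Cyp2d11 shared more words with each other than with any other gene, so the split of their counts is uncertain. The Cyp2j genes were 99.6% and 99.8% unique, and Cyp2f2 was 100% unique. Annotated genes overlap Cyp2d9, Cyp2d10 and Cyp2d11, and Gm15883 lies inside Cyp2f2 on the opposite strand. These overlaps are of whole gene spans, and whether exons overlap was not examined. The genes overlapping Cyp2d10 and Cyp2d11, and all but Gm49419 of those overlapping Cyp2d9, lie on the same strand. Where their exons overlap, no strand setting would separate the reads. The strand setting of the counting is not given in the sources used here, so it is not known whether reads of opposite-strand pairs were kept apart.

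Libraries held 11266420 to 24775863 counts, with a median of 14786573. Yap1 was at 0.696 to 1.84 CPM (counts scaled to a common library total) in knockout CCl4 samples, against 47.5 to 72.8 CPM in wild-type CCl4 samples, and at 1.14 to 7.59 CPM in knockout untreated samples, against 31.2 to 67.1 CPM in wild-type untreated samples. Wwtr1, which encodes Taz, was at 3.53 to 6.09 CPM in knockout CCl4 samples, against 17.02 to 26.6 CPM in wild-type CCl4 samples, and at 1.03 to 2.37 CPM in knockout untreated samples, against 8.47 to 19.3 CPM in wild-type untreated samples. Mitochondrial transcripts were abundant in 2 libraries, at 34.3% of counts (knockout CCl4, replicate 3) and 30.7% (wild-type untreated, replicate 5). The 14 hepatocyte markers found in the table, of 15 listed, summed to 119800 to 189600 CPM in knockout CCl4 samples, 150800 to 171900 CPM in wild-type CCl4 samples, 131300 to 153800 CPM in knockout untreated samples and 91940 to 152500 CPM in wild-type untreated samples, and none was at 0. The 15 macrophage markers summed to 179, 478 and 4168 CPM in knockout CCl4 samples, 58.8 to 145 CPM in wild-type CCl4 samples, 25.03 to 64.3 CPM in knockout untreated samples and 19.5 to 66.8 CPM in wild-type untreated samples, and none was at 0 throughout a group. The 14 endothelial markers summed to 170 to 977 CPM in knockout CCl4 samples, 54.2 to 257 CPM in wild-type CCl4 samples, 23.8 to 44.2 CPM in knockout untreated samples and 10.7 to 55.6 CPM in wild-type untreated samples, with none at 0 throughout a group. The 13 stellate cell and fibroblast markers summed to 97.7 to 245 CPM in knockout CCl4 samples, 21.4 to 94.3 CPM in wild-type CCl4 samples, 7.19 to 10.8 CPM in knockout untreated samples and 4.81 to 18.2 CPM in wild-type untreated samples. Acta2 was at 0 in both untreated groups, and Pdgfrb and Hand2 in the knockout untreated one. In bulk samples, fewer cells of a type and less RNA per cell cannot be told apart.

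The 9 genes differed by orders of magnitude in level. Per kilobase of exon, Cyp2f2 was highest in wild-type untreated hepatocytes at 1198 ± 199 CPM per kb (SD, n = 5), rank 74 of 13551 genes, followed by Cyp2d9 at 912 ± 101 CPM per kb. Cyp2d26 averaged 526 ± 70.9 CPM per kb and Cyp2d10 492 ± 45.7 CPM per kb, and these ranges overlapped, as did those of Cyp2f2 and Cyp2d9. Below them came Cyp2j5 at 204 ± 27.5, Cyp2d22 at 99.4 ± 17.4, Cyp2d40 at 64.4 ± 16.8, Cyp2j6 at 22.2 ± 1.62 and Cyp2d11 at 0.880 ± 0.0765 CPM per kb. The other neighbours in this order did not overlap between samples. Exon lengths were those of the basic set of GENCODE M21. The annotation used in the counting is not known, and other lengths could change this order. The mean level of Cyp2d9 per kilobase was 1037 times that of Cyp2d11 in wild-type untreated samples. In knockout CCl4 samples the order changed at the top, with Cyp2d26 at 288 ± 6.89, Cyp2d9 at 254 ± 173 and Cyp2f2 at 209 ± 192 CPM per kb (SD, n = 3), although the ranges of these 3 genes overlapped. Together the 9 genes took 0.132% to 0.336% of all counts in knockout CCl4 samples, 0.405% to 0.578% in wild-type CCl4 samples, 0.489% to 0.592% in knockout untreated samples and 0.436% to 0.618% in wild-type untreated samples.

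**Figure D1:**
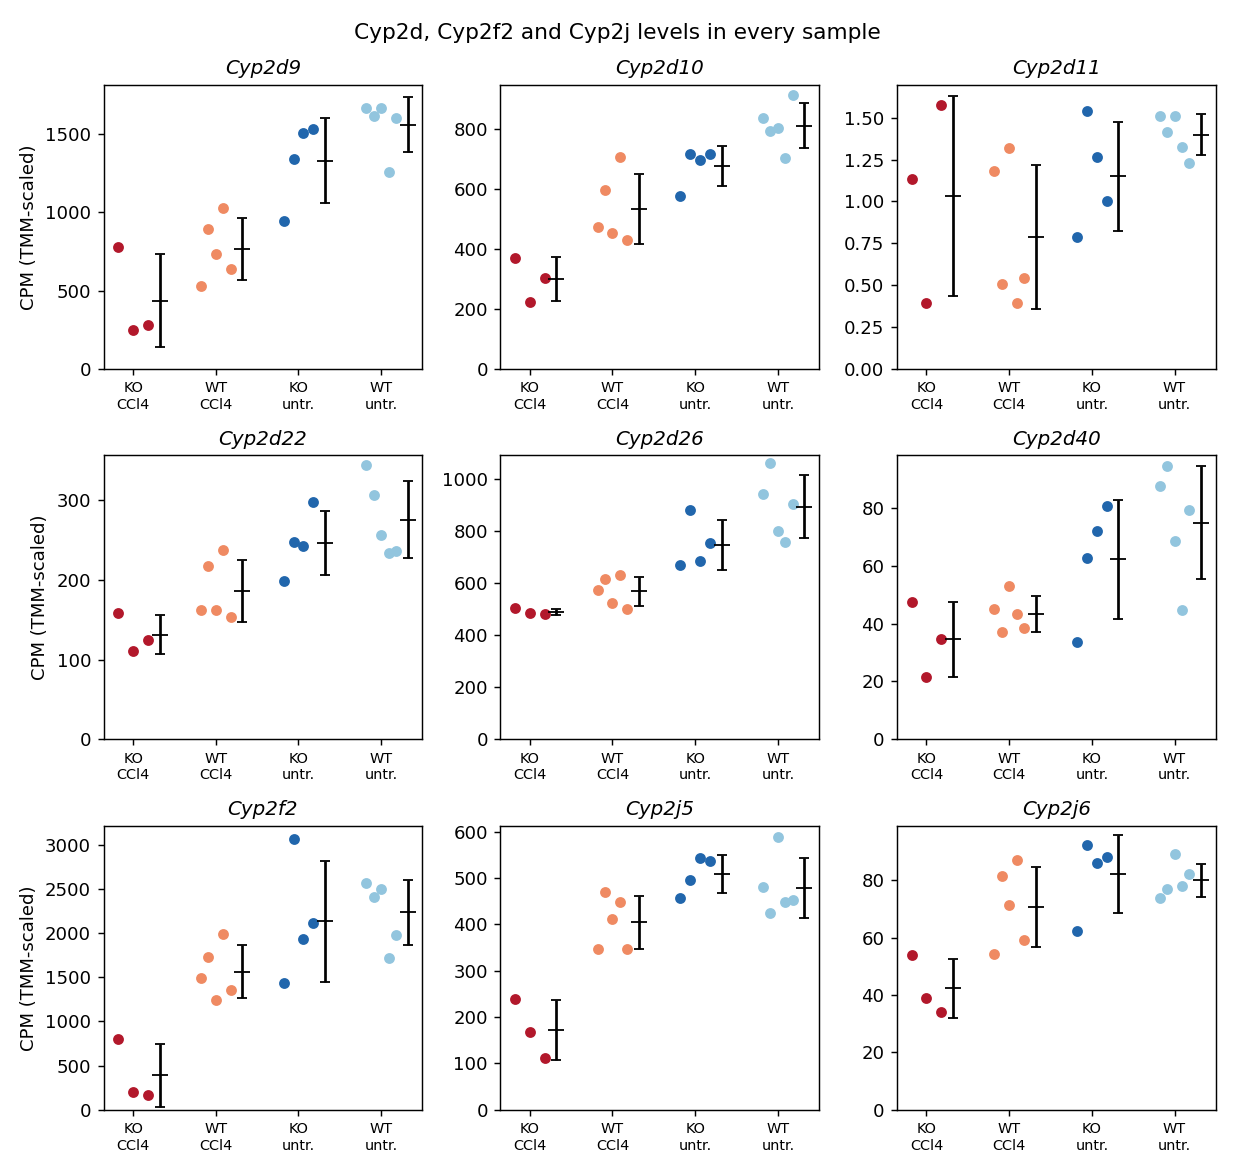
Level of each gene in every sample, as CPM scaled by the trimmed mean of M-values (TMM) on the vertical axis, with the 4 groups along the horizontal axis. Points are samples, and the bars beside them give mean ± SD. The 3 knockout CCl4 samples lie below all knockout untreated samples for every gene but Cyp2d11 and Cyp2d40.

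Most of these genes were lower after CCl4 in knockout mice. In knockout CCl4 against knockout untreated samples, 7 of the 9 genes fell, none rose (as 12.1% of all genes did), and Cyp2f2 fell most, to levels 5.47-fold lower (edgeR quasi-likelihood test, Benjamini-Hochberg adjusted p under 0.05). Of all 13721 genes tested, 6.96% were lower by the same rule. The choice of the 9 genes was not blind to these data, so such shares are set beside them as description. In 7 genes every knockout CCl4 sample lay below every knockout untreated sample, against 10.8% of all genes. The median log2 fold change of the 9 genes was -0.96, against 0.0098 for all genes tested. Within these libraries the other cell markers moved too: 15 of 15 macrophage, 13 of 14 endothelial and 9 of 10 tested stellate and fibroblast markers rose, and their part in the results on the P450 genes was not tested.

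Cyp2f2, the periportal P450, had 804, 198 and 168 CPM in knockout CCl4 samples, against 1432, 3062, 1930 and 2112 CPM in knockout untreated samples. Replicate 1 stood at several times the level of the other knockout CCl4 samples, yet all 3 lay below the lowest untreated one. The log2 fold change was -2.45 ± 0.45 (SE, adjusted p = 0.00147), and it was -3.55 without knockout CCl4 replicate 1. Without replicate 3, the library with the most macrophage and mitochondrial counts, it was -2.09 (adjusted p = 0.00694). Per 1000 counts of the 14 hepatocyte markers, Cyp2f2 had 1.21 to 4.82 counts in knockout CCl4 samples, against 12.2 to 17.6 in knockout untreated samples, and these ranges did not overlap either. Of those 14 markers, 5 were called lower and 2 higher in this contrast. Their sums were 189600, 180600 and 119800 CPM in knockout CCl4 samples, against 131300 to 153800 CPM in knockout untreated samples. The ratio therefore also moves with the markers.

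Cyp2d9, a male-biased hydroxylase of testosterone, had 778, 250 and 279 CPM in knockout CCl4 samples, against 946, 1338, 1507 and 1533 CPM in knockout untreated samples. As with Cyp2f2, replicate 1 was the highest of the treated samples. The log2 fold change was -1.61 ± 0.34 (adjusted p = 0.00379), and without replicate 1 it was -2.34. Without knockout CCl4 replicate 2 it was -1.33. In a fit of the compared groups only, the fall of Cyp2d9 no longer passed (-1.59, adjusted p = 0.0584). Its neighbour Cyp2d10 had 371, 225 and 305 CPM in knockout CCl4 samples, against 576, 719, 698 and 717 CPM in knockout untreated samples. That fall was smaller, at -1.17 ± 0.20 (adjusted p = 0.000999), and the groups did not overlap.

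Cyp2d26 had 504, 486 and 481 CPM in knockout CCl4 samples, against 671, 881, 684 and 754 CPM in knockout untreated samples. Its treated samples were the closest together of the 9 genes, with a coefficient of variation of 2.39%, and its fall of 0.61 ± 0.15 on the log2 scale was the smallest that passed (adjusted p = 0.0102). That fall did not pass with library totals in place of TMM scaling (-0.41, adjusted p = 0.152). Nor did it pass in a fit of the compared groups only (-0.59, adjusted p = 0.0933). Cyp2d22, often treated as the nearest mouse counterpart of CYP2D6, had 158, 111 and 124 CPM in knockout CCl4 samples, against 198, 247, 242 and 297 CPM in knockout untreated samples. It fell by 0.91 ± 0.21 on the log2 scale (adjusted p = 0.00624), but did not pass with library totals (-0.71, adjusted p = 0.0511). Cyp2d40 ranged over 21.5 to 47.5 CPM in knockout CCl4 samples and 33.5 to 80.7 CPM in knockout untreated samples, a log2 difference of -0.85 ± 0.31 that did not pass (adjusted p = 0.068). It passed without knockout CCl4 replicate 1 (-1.16, adjusted p = 0.0244) or knockout untreated replicate 1 (-1.05, adjusted p = 0.0187). Cyp2d11, near 1 CPM in every group, differed by -0.17 ± 0.52 (adjusted p = 0.878), and at such counts a change of the size seen in its neighbours would be hard to detect.

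The arachidonate epoxygenase Cyp2j5 had 240, 168 and 111 CPM in knockout CCl4 samples, against 457, 496, 544 and 537 CPM in knockout untreated samples. Its groups lay far apart, and the fall of 1.56 ± 0.22 on the log2 scale had the smallest p-value of the 9 (adjusted p = 0.000392). Cyp2j6, its neighbour on chromosome 4, had 54.0, 39.0 and 34.2 CPM in knockout CCl4 samples, against 62.4, 92.4, 86.1 and 88.2 CPM in knockout untreated samples. It fell by 0.96 ± 0.20 on the log2 scale (adjusted p = 0.00335).

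In wild-type mice the same CCl4 course was followed by a call for 1 of the 9 genes, against 0.277% of all genes called lower. Cyp2d26 had 574, 615, 524, 631 and 502 CPM in wild-type CCl4 samples, against 944, 1062, 799, 759 and 906 CPM in wild-type untreated samples. No values overlapped, and the gene fell by 0.65 ± 0.13 on the log2 scale (adjusted p = 0.0188), a size close to that in knockout mice. The call was lost when any one of wild-type CCl4 replicates 3 and 5 or wild-type untreated replicates 1 and 2 was left out, with adjusted p up to 0.0685. Of the markers of other cells, 0 of 15 macrophage, 2 of 14 endothelial and 1 of 10 tested stellate and fibroblast markers were called higher in this contrast, with median log2 fold changes of 2.18, 2.56 and 1.97, and their part was not tested. Over all 13721 genes tested, 117 were called in this contrast, 67.5% of them higher.

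Cyp2d9 also separated the wild-type groups, with 530, 893, 734, 1027 and 636 CPM in wild-type CCl4 samples, against 1669, 1614, 1665, 1255 and 1604 CPM in wild-type untreated samples. Groups that did not overlap in that direction were found for 1.69% of all genes, but the log2 difference of -1.03 ± 0.27 did not pass (adjusted p = 0.0994); it passed in the fit without knockout CCl4 replicate 1 (adjusted p = 0.0111). Cyp2d10 (-0.61 ± 0.16, adjusted p = 0.102), Cyp2d22 (-0.57 ± 0.17, adjusted p = 0.136), Cyp2d40 (-0.79 ± 0.25, adjusted p = 0.156) and Cyp2d11 (-0.82 ± 0.43, adjusted p = 0.403) did not pass either, although Cyp2d10 did without wild-type CCl4 replicate 4 (-0.73, adjusted p = 0.0499). Cyp2f2 had 1496, 1728, 1247, 1990 and 1354 CPM in wild-type CCl4 samples, against 2573, 2409, 2501, 1714 and 1978 CPM in wild-type untreated samples. These groups overlapped, at a log2 difference of -0.52 ± 0.34 (adjusted p = 0.52). Cyp2j5 ranged over 346 to 469 CPM in wild-type CCl4 samples and 425 to 589 CPM in wild-type untreated samples, at -0.24 ± 0.17 (adjusted p = 0.558), and Cyp2j6 stood at -0.18 ± 0.16 (adjusted p = 0.663). With library totals in place of TMM scaling, the estimates for Cyp2j5 and Cyp2j6 turned to 0.14 and 0.21, also uncalled, and the all-gene median shifted to 0.38.

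**Figure D2:**
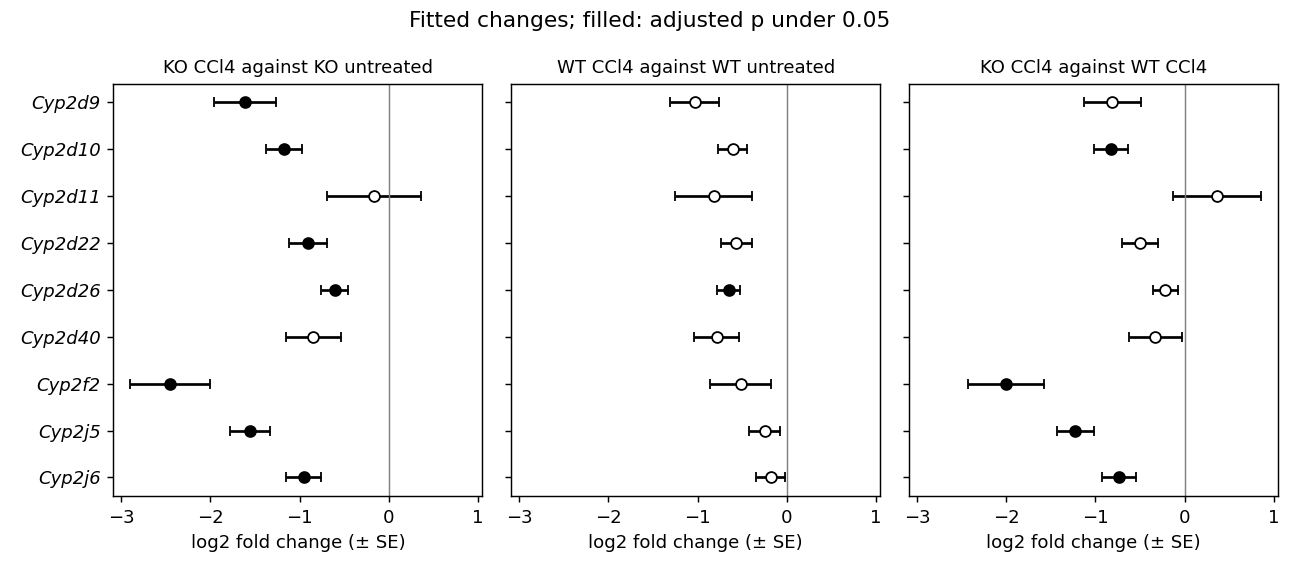
Log2 fold change ± SE of each gene (rows) in 3 comparisons, with filled points where the adjusted p was under 0.05. 7 points are filled for knockout CCl4 against knockout untreated, 1 for wild-type CCl4 against wild-type untreated, and 4 for knockout CCl4 against wild-type CCl4.

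After CCl4, knockout samples were lower than wild-type samples for 4 of the 9 genes (4.21% of all genes were lower), and the same 4 were those whose groups did not overlap (7.97% of all genes). Cyp2f2, with the per-sample values given above, was at -2.003 ± 0.43 on the log2 scale (adjusted p = 0.00705), and at -3.10 without knockout CCl4 replicate 1. Without knockout CCl4 replicate 3 it was at -1.64. Over the 17 fits that each left out 1 sample, its adjusted p reached 0.048. Cyp2j5 had 240, 168 and 111 CPM in knockout CCl4 samples, against 347, 469, 412, 448 and 346 CPM in wild-type CCl4 samples, a log2 difference of -1.23 ± 0.21 (adjusted p = 0.00193). Cyp2d10 had 371, 225 and 305 CPM in knockout CCl4 samples, against 474, 597, 454, 707 and 432 CPM in wild-type CCl4 samples, a log2 difference of -0.83 ± 0.19 (adjusted p = 0.011). Cyp2j6 had 54.0, 39.0 and 34.2 CPM in knockout CCl4 samples, against 54.4, 81.5, 71.3, 86.9 and 59.1 CPM in wild-type CCl4 samples, so that 1 knockout sample all but reached the lowest wild-type one (-0.74 ± 0.19, adjusted p = 0.0203). Cyp2d10 and Cyp2j6 no longer passed without knockout CCl4 replicate 2 (adjusted p = 0.0531 and 0.0701) or without replicate 3 (0.0561 and 0.136), nor Cyp2j6 without wild-type CCl4 replicate 2 (0.0517). Cyp2d9 (-0.81 ± 0.32, adjusted p = 0.119), Cyp2d22 (-0.50 ± 0.20, adjusted p = 0.117), Cyp2d26 (-0.21 ± 0.15, adjusted p = 0.384), Cyp2d40 (-0.33 ± 0.29, adjusted p = 0.53) and Cyp2d11 (0.37 ± 0.50, adjusted p = 0.703) did not pass. Without knockout CCl4 replicate 1, Cyp2d9 passed at -1.54 (adjusted p = 0.00103). Markers of other cells differed in this contrast too, 15 of 15 macrophage, 5 of 14 endothelial and 1 of 10 tested stellate and fibroblast markers being called higher in knockout CCl4 samples, and their part was not tested. Over all 13721 genes tested, 1622 were called in this contrast, 64.4% of them higher.

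Without CCl4, none of the 9 genes was called between knockout and wild-type samples by edgeR (0.933% of all genes were called in either direction), none had an unadjusted p under 0.05, and DESeq2 called 0 as well. The log2 differences ran between -0.29 for Cyp2d11 and 0.09 for Cyp2j5. Cyp2f2 averaged 2134 ± 682 CPM in knockout untreated samples (SD, n = 4) and 2235 ± 372 CPM in wild-type untreated samples (SD, n = 5), at -0.07 ± 0.36 on the log2 scale.

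Whether CCl4 acted differently in the 2 genotypes was tested as the difference of the 2 CCl4 effects. Cyp2j5 was the 1 gene of the 9 that passed, with an effect in knockout lower than that in wild type by 1.31 ± 0.28 on the log2 scale (adjusted p = 0.0431; 0.299% of all genes were called lower). The call failed in 14 of the 17 fits that each left out 1 sample, with adjusted p up to 0.0901. Cyp2f2 had a larger but less certain difference of -1.94 ± 0.55 (adjusted p = 0.0811), which passed at -3.04 without knockout CCl4 replicate 1 (adjusted p = 0.000635). It did not pass in 16 of the 17 such fits, with adjusted p up to 0.209, and was at -1.58 without knockout CCl4 replicate 3. Cyp2j6 was at -0.78 ± 0.26 (adjusted p = 0.125), Cyp2d10 at -0.57 ± 0.26 (adjusted p = 0.266) and Cyp2d9 at -0.58 ± 0.43 (adjusted p = 0.535). Without knockout CCl4 replicate 1, Cyp2j6 (-0.999, adjusted p = 0.034) and Cyp2d9 (-1.31, adjusted p = 0.0245) passed as well. Cyp2d26 was at 0.04 ± 0.20 (adjusted p = 0.94).

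Ratios of counts within a library do not depend on its scaling. Cyp2f2 to Cyp2d26 was 1.60, 0.407 and 0.349 in knockout CCl4 samples, against 2.13 to 3.48 in knockout untreated samples, while it was 2.38 to 3.15 in wild-type CCl4 samples, against 2.18 to 3.13 in wild-type untreated samples. Cyp2j5 to Cyp2j6 was 3.25 to 4.44 in knockout CCl4 samples, against 5.37 to 7.33 in knockout untreated samples, with no overlap. Cyp2d9 to Cyp2d10 was 1.12 to 1.61 in wild-type CCl4 samples, against 1.76 to 2.07 in wild-type untreated samples. In knockout mice it was 0.918 to 2.10 in CCl4 samples, against 1.64 to 2.16 in untreated samples, with overlap. Knockout CCl4 replicate 1 held the highest value of its group for Cyp2f2 to Cyp2d26, Cyp2d9 to Cyp2d10 and Cyp2j5 to Cyp2j6. Cyp2f2 to Cyp2d9 was 0.601 to 1.03 in knockout CCl4 samples, against 1.28 to 2.29 in knockout untreated samples, and 1.70 to 2.82 in wild-type CCl4 samples, against 1.23 to 1.54 in wild-type untreated samples. It was thus lower after CCl4 in knockout libraries and higher in wild-type libraries, with no overlap in either genotype. These ratios are descriptions, and no test was run on them.

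**Figure D3:**
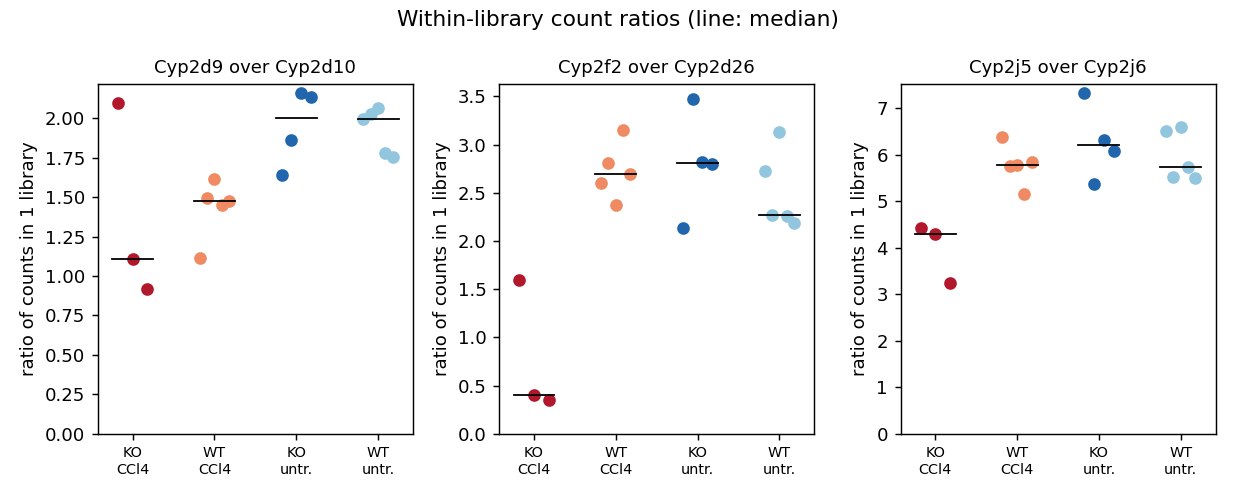
Count ratios of 3 gene pairs within each library (vertical axis, no unit) for the 4 groups, with a line at the median. Cyp2f2 to Cyp2d26 and Cyp2j5 to Cyp2j6 are lower in all knockout CCl4 samples than in every other sample, while Cyp2d9 to Cyp2d10 is lower in wild-type CCl4 than in wild-type untreated samples.

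Genes known for the liver zone or sex bias of these P450 enzymes were set beside them. These lists too were chosen with earlier results of these data known, so the counts are description. Of all genes tested, 12.1% rose and 6.96% fell after CCl4 in knockout mice. In wild-type mice 117 genes were called, 67.5% of them higher, and 0.277% of all genes were lower. Of 23 periportal hepatocyte genes, 13 fell and none rose in knockout CCl4 against knockout untreated samples (median log2 -0.93), among them Etnppl (-2.51 ± 0.50, adjusted p = 0.00236), Hal, which breaks down histidine (-1.57 ± 0.30, adjusted p = 0.00192), and Pigr, the carrier of immunoglobulin A (-1.40 ± 0.20, adjusted p = 0.000443). In wild-type mice none of the 23 was called (median -0.18). Of 19 pericentral genes tested, 5 rose and none fell in knockout mice (median 0.88), including the glutathione transferase Gstm3 (4.08 ± 0.55, adjusted p = 0.000326), Lect2 (1.89 ± 0.47, adjusted p = 0.00892) and the Wnt target Axin2 (2.16 ± 0.55, adjusted p = 0.0111). In wild-type mice 1 rose, Gstm3 (1.94 ± 0.44, adjusted p = 0.0497). Untreated knockout samples had a median of -0.69 for these 19 genes against untreated wild-type samples, with none called. Between the CCl4 groups the median was -0.05, with 1 higher in knockout, Gstm3 (1.74, adjusted p = 0.0279), and 1 lower. Of all 13721 genes tested, 1622 were called there, 64.4% of them higher, and 4.21% of all genes were lower. Lect2 (0.53, adjusted p = 0.492) and Axin2 (0.09, adjusted p = 0.938) were not called there.

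Cyp2d9 is known for male-biased expression, and other genes with a sex bias in liver were set beside it. The shares of all genes are those just given, 12.1% higher and 6.96% lower in knockout mice and 0.277% lower in wild-type mice. Of 20 male-biased genes, 18 fell in knockout mice (median -3.22) and 6 fell in wild-type mice (median -1.46), with none higher in either. The steroid dehydrogenase Hsd3b5 changed by -7.79 ± 0.77 in knockout mice (adjusted p = 2.16e-05) and by -3.46 ± 0.47 in wild-type mice (adjusted p = 0.00215) on the log2 scale, and Mup3, a urinary pheromone carrier, fell by 3.71 ± 0.53 in knockout mice (adjusted p = 0.000392) and stood at -1.67 ± 0.39 in wild-type mice (adjusted p = 0.0547). Susd4, a complement regulator, changed by -2.78 ± 0.41 in knockout mice (adjusted p = 0.00046) and by -2.53 ± 0.32 in wild-type mice (adjusted p = 0.00164). Of 12 female-biased genes tested, 4 rose in knockout mice (median 2.12, or 1.80 with the 2 genes at 0 throughout a group set to a floor of 3 counts) and 2 in wild-type mice (median 1.29), with none lower. Between the CCl4 groups, 3 of these 12 were higher in knockout samples and none lower (median 0.17). There 8 of the 20 male-biased genes were lower in knockout samples and none higher (median -1.54). Over all genes tested, 1622 were called between the CCl4 groups, 64.4% of them higher, and 4.21% of all genes were lower. Cyp2a4, a steroid-hydroxylating P450 with a near-identical copy, Cyp2a5, that may share its reads, rose in both genotypes. It had 25.9 to 99.7 CPM in knockout CCl4 samples, against 0 to 0.257 CPM in knockout untreated samples (adjusted p = 1.91e-05), and 3.25 to 8.85 CPM in wild-type CCl4 samples, against 0 to 1.55 CPM in wild-type untreated samples (adjusted p = 0.0199). Cyp2b9 had 14.9 to 48.6 CPM in knockout CCl4 samples, against 0 in all knockout untreated samples (adjusted p = 0.00122), and 5.03 to 28.7 CPM in wild-type CCl4 samples, against 0.0723 to 7.67 CPM in wild-type untreated samples (adjusted p = 0.199). Atp6v0d2, a proton pump subunit, rose by 3.91 ± 0.66 in knockout mice (adjusted p = 0.000896) and stood at 0.57 ± 0.53 in wild-type mice (adjusted p = 0.671). It had 4.19 to 37.6 CPM in knockout CCl4 samples. Macrophage marker sums were higher in the same samples, and their part in its rise was not tested.

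**Figure D4:**
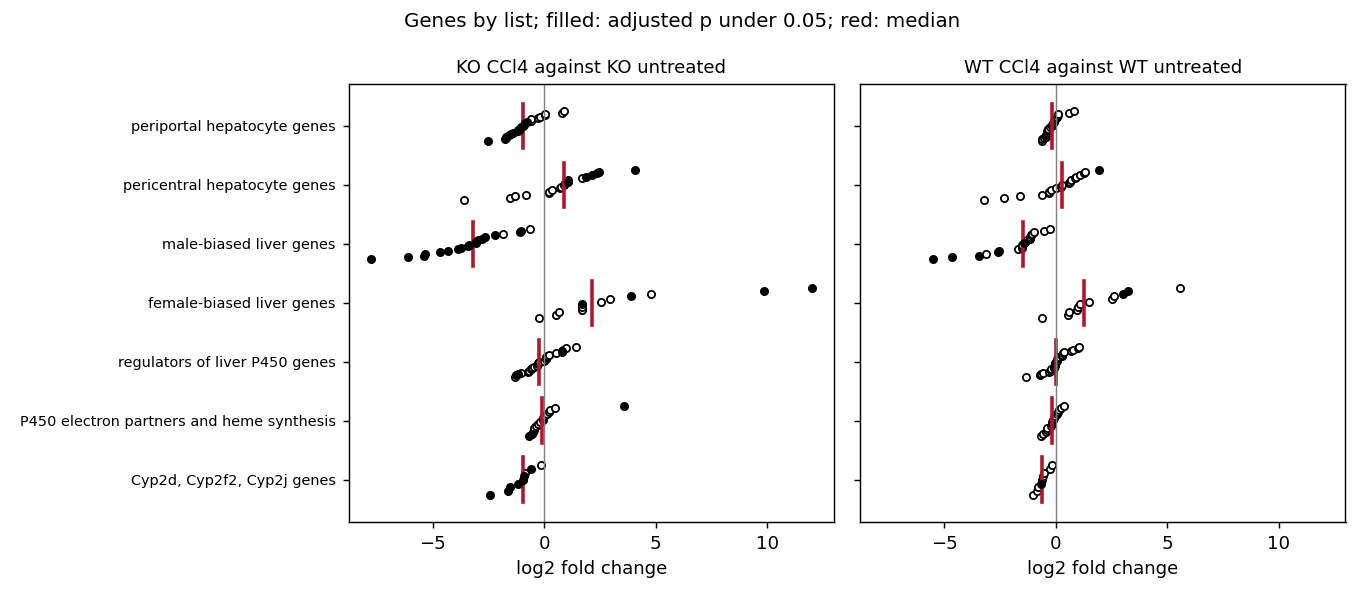
Log2 fold change (horizontal axis) of the genes of each list (rows) after CCl4 in knockout mice (left) and wild-type mice (right), with filled points for adjusted p under 0.05 and a red line at the median. In knockout mice the medians are -0.93 for periportal, 0.88 for pericentral, -3.22 for male-biased and -0.96 for the Cyp2d, Cyp2f2 and Cyp2j genes.

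Upstream regulators and partners of P450 enzymes were counted against the shares of all genes in this contrast, 12.1% higher and 6.96% lower. Of 25 regulators of liver P450 genes, 1 rose and 2 fell in knockout CCl4 against knockout untreated samples (median -0.24). Those that fell were Ghr, the growth hormone receptor (-1.28 ± 0.28, adjusted p = 0.00437), and Cebpa, a transcription factor of mature hepatocytes (-1.16 ± 0.28, adjusted p = 0.00874). Stat5a, which acts downstream of growth hormone, rose (0.81 ± 0.25, adjusted p = 0.0329). The other 22 were not called, among them Stat5b (0.08 ± 0.32, adjusted p = 0.911). Of 16 electron partners and heme enzymes, 1 rose and 2 fell (median -0.12). Hmox1, which degrades heme, rose by 3.58 ± 0.81 (adjusted p = 0.00564), at 8.97 to 194 CPM in knockout CCl4 samples and 1.88 to 9.92 CPM in knockout untreated samples, and its ranges overlapped. Fech, the last enzyme of heme synthesis, fell by 0.70 ± 0.18 (adjusted p = 0.0134). Pgrmc1, a heme-binding partner of P450 enzymes, fell by 0.56 ± 0.16 (adjusted p = 0.0199). In wild-type mice no gene of either list was called.

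Among 12 tested genes that supply arachidonic acid or use its products, 2 rose and 3 fell in knockout mice (median -0.26; 12.1% and 6.96% of all genes), and none was called in wild-type mice. Ephx2, which hydrolyses the epoxides that Cyp2j enzymes make, fell by 1.30 ± 0.30 (adjusted p = 0.00597). Ptgs1, a cyclooxygenase, rose by 6.02 ± 0.99 (adjusted p = 0.000787), and the phospholipase Pla2g15 rose by 1.58 ± 0.39 (adjusted p = 0.00843). Macrophage marker sums were higher in the same samples, and their part in the rise of Stat5a, Hmox1, Ptgs1 and Pla2g15 was not tested.

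The other Cyp2d and Cyp2j genes were all scarce. Of the 8 present in the table, 6 were tested and none was called in knockout or wild-type mice, with medians of -1.09 and -0.79. Cyp2d12 averaged 0.804 ± 0.384 CPM in knockout CCl4 samples (SD, n = 3) and 2.35 ± 0.671 CPM in knockout untreated samples (SD, n = 4), at -1.55 ± 0.57 on the log2 scale (adjusted p = 0.0678). Cyp2d34 was at -1.21 ± 0.66 (adjusted p = 0.235), and Cyp2d37-ps, a pseudogene, at -1.11 ± 0.62 (adjusted p = 0.251).

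Profiles across the 17 samples were compared by the mean absolute difference of centred log2 CPM over 7305 genes of at least 10 CPM on average. Nearest to Cyp2f2 were Car3, a muscle and liver carbonic anhydrase (0.266), Mup10 (0.274) and Fn3k (0.287), against a median of 0.823 for all genes. Nearest to Cyp2d9 were Ces3a (0.225), Serpina1c (0.228) and Serpina3k (0.239), against 0.695. Nearest to Cyp2j5 were Il1rap (0.125), Ndrg2 (0.143) and Serpinf1 (0.144), against 0.504. The single nearest genes were Haao for Cyp2d10 (0.12), Masp2 for Cyp2d22 (0.0809), Proc for Cyp2d26 (0.128), Gcgr for Cyp2d40 (0.179) and Bphl for Cyp2j6 (0.11). The nearest to Cyp2d11 lay at 0.318, against a median of 0.567. Among the 9 genes themselves the closest pair was Cyp2d10 and Cyp2d22 (0.154), and Cyp2j5 and Cyp2j6 lay at 0.193. These values describe likeness over samples that share their groups.

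Genes near the P450 genes are listed as description. Of all genes tested, 12.1% were higher and 6.96% lower in knockout CCl4 against knockout untreated samples. Within 200 kb of Cyp2f2, 11 genes were tested in knockout CCl4 against knockout untreated samples. Coq8b (1.59, adjusted p = 0.000578) and Ltbp4 (3.71, adjusted p = 0.00572) rose on the log2 scale, and the P450 genes Cyp2a12 (-1.18, adjusted p = 0.00109) and Cyp2a22 (-0.78, adjusted p = 0.0398) fell. Within 200 kb of Cyp2d9, 1 of 11 genes rose, the centromere gene Cenpm (3.30, adjusted p = 0.00544), and 3 fell. Those were Cyp2d10 and Cyp2d22, both described above, and the respiratory chain gene Ndufa6 (-0.72, adjusted p = 0.042). Gm15883, on the opposite strand inside Cyp2f2, stood at -0.97 (adjusted p = 0.142).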

How the data were processed

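RNA-seq libraries of sorted hepatocytes were deposited as 1 table of whole-number counts per gene, which the authors did not normalise, for 17 samples. STAR 2.4.1d, FastQC, DESeq2, edgeR, limma and the mm10 build are named in the submitters' processing notes. For the counting tool, its strand setting and its annotation, nothing is stated: not given in the sources used here. All columns were used. Symbols and mm10 positions for 22914 of the 23461 IDs came from GENCODE M21. Total counts ran between 11266420 and 24775863, which leaves counting error small for all 9 genes but Cyp2d11. No replicate pair agreed within sampling noise (lowest chi-square per gene 23.4).

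With R 4.3.3, 13721 genes passed filterByExpr (minimum count 10, minimum total 15). They were scaled by TMM and fitted over all 4 groups with edgeR 4.0.16 (glmQLFit, glmQLFTest), Benjamini-Hochberg adjusted over all tested genes at 0.05. As a check of the code, the procedure was run on simulated data with 200 changed genes. Far fewer genes changed there than were called in knockout mice, so the check does not bear on the calls given here. Alternatives were other scaling or filters, no mitochondrial genes, limma 3.58.1 voom, DESeq2 1.42.0, compared groups only, a replicate block, and leaving out samples. The 9 genes, the lists and the tests were chosen with earlier results of these data known. Named are all 9 genes and up to 3 genes per list with the smallest adjusted p in knockout CCl4 against knockout untreated samples. Stat5b was named beside Stat5a after its values were seen. Genes nearest in profile (log2 with 0.1 CPM added) are named as well. These are 3 each for Cyp2f2, Cyp2d9 and Cyp2j5, and the single nearest for the others but Cyp2d11. Genes named as chromosomal neighbours were chosen after their values were seen.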

Additional observations from a re-analysis of the deposited data

Results flagged for a closer look

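Cyp2d9 in wild-type untreated replicate 4 was at 1255 CPM, far below the other 4 samples of its group, which lay between 1604 and 1669 CPM. Cyp2d10 in knockout untreated replicate 1 was at 576 CPM, apart from the other 3 samples at 698 to 719 CPM. Such a gap arises by chance in about 1 of 20 groups, and 27 groups were checked. The knockout CCl4 groups, of 3 samples each, were too small for the check and are not among them. Wide gaps there, as in Cyp2f2 at 804, 198 and 168 CPM, were therefore not flagged. The CCl4 effect on Cyp2j5 differed between knockout and wild-type mice by -1.31 on the log2 scale in the test of the difference itself.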

How the results depend on the processing

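Of the 9 genes, the count called lower in knockout CCl4 against knockout untreated samples stayed at 7 to 8 over the 17 fits without 1 sample, and at 5 (library totals) to 8 (DESeq2) over the 12 other settings. In wild-type mice the count of 1 ranged over 0 to 2 without 1 sample, and it was 0 with library totals, without a filter and with the replicate block, 2 with the compared groups only, and 4 with DESeq2 and with quality-weighted voom. For knockout CCl4 against wild-type CCl4 the count of 4 ranged over 2 to 5 without 1 sample, and it was 2 with the compared groups only, with the replicate block and without the 2 libraries over 30% mitochondrial counts. For the difference of CCl4 effects the count of 1 ranged over 0 to 4 without 1 sample, and it was 2 with DESeq2 and 0 with library totals, without a filter, with voom, with quality-weighted voom, with the replicate block and without those 2 libraries. For the single genes, 43 values under an alternative lost a call, 18 gained one and 1235 did neither, and no called value changed sign. The cause of these changes was not tested. The labels say that replicate numbers pair nothing, and of 15 same-numbered pairs 1 correlated above 0.1 (-0.234 to 0.199), so the block result of 0, 2 and 0 calls is given here alone.

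Over all genes, calls in knockout mice numbered 2610, against 1273 with the compared groups only and 1666 without knockout CCl4 replicate 3. In wild-type mice they numbered 117, against 49 with the replicate block, 435 with quality-weighted voom, 494 with DESeq2, 651 with library totals and 63 to 179 without 1 sample. Knockout against wild-type CCl4 gave 1622, against 555 without the 2 mitochondria-rich libraries and 418 to 2216 without 1 sample. Untreated knockout against wild-type samples gave 128, against 328 with DESeq2. The difference of effects gave 150, against 783 with DESeq2, 28 with library totals, 3 with the replicate block, 2 with quality-weighted voom and 0 to 867 without 1 sample. With library totals, 83.6% of calls in knockout mice were higher, against 63.4% with TMM, and 94.8% against 67.5% in wild-type mice. They moved the median of all genes to 0.20 in knockout and 0.38 in wild-type mice. Depth limits Cyp2d11 alone among the 9 genes.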
